A study of Mus musculus with 167 samples.

Results

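The cytosolic heat shock chaperones described here are 10 genes, 10 of the 39179 genes in the deposited tables of mouse liver messenger RNA: Hspa1a, Hspa1b, Hspa8, Hspa4, Hsph1, Hsp90aa1, Hsp90ab1, Dnaja1, Dnajb1 and Bag3. They were taken as a list of named genes and were not chosen by a threshold on measured values. All 10 passed the filter on low counts in every comparison. Each is followed over 21 groups of genotype and age and in each single library.

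Chaperones of the HSP70 family bind stretches of unfolded protein and release them in a cycle driven by ATP. J-domain proteins (Dnaja1, Dnajb1) deliver the client and start ATP hydrolysis, and nucleotide exchange factors (Hspa4, Hsph1, Bag3) let the client go. HSP90 proteins take over many clients, among them kinases and steroid receptors, for the last steps of folding. Under heat or proteotoxic stress heat shock factor 1 (Hsf1) binds repeats of GAA in the promoters of several of these genes and raises their transcription, most strongly that of the inducible HSP70 genes Hspa1a and Hspa1b.

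The mice were of strain C57BL/6. Wild-type mice and 6 knock-in lines were compared, each line heterozygous for an Htt allele named by the length of its CAG repeat (Q20, Q80, Q92, Q111, Q140, Q175). Htt encodes huntingtin, whose expanded repeat causes Huntington's disease. Livers were flash frozen at 2, 6 and 10 months. Each of the 21 groups had 8 libraries, 4 of females and 4 of males, apart from Q80 at 10 months with 7 and Q80 at 2 months, which the labels give as 3 females and 5 males. Wild-type mice were housed with Q20 mice, and the mice of each line with others of their line. The labels do not say that each library is a separate animal, so p-values measure the spread between these libraries. Whole liver was used, so fewer cells of a type and less RNA per cell cannot be told apart.

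Expected counts per library summed to between 32025244 and 57151736. Levels are given as counts scaled to library size (CPM), and per length as FPKM where genes are compared with each other. A change is a log2 difference with its standard error (SE). A gene is called where the quasi-likelihood test of edgeR gave a p below 0.05 after adjustment over all genes by the Benjamini-Hochberg method. Hepatocyte markers were high in every library, and none of the 10 listed was at 0. In 1 library, Q80 M5 at 2 months, the sex-linked genes went against the label. In 10 libraries a marker of other tissue was high: the bile duct gene Krt19 in 7 (10.6 to 63.9 CPM), the muscle gene Acta1 in 2 (7.82 and 271 CPM) and the red cell gene Hba-a1 in 1 (3456 CPM). Only these genes were screened. Among females, summed adipocyte markers reached 165 CPM at 6 months (median 4.34) and summed lymphocyte markers 753 CPM at 10 months (median 43.5). At 6 months the index in the library names was of the kind LB in 5 knock-in lines and in 6 of 8 Q175 libraries, and of the kind D7 in all wild-type libraries, and no library of 2 or 10 months had an LB index. At 6 months, Q20 against wild type therefore cannot be told apart from the index kind, nor can 6 months against the other ages in the knock-in lines. Wild-type libraries had no LB index at any age.

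Hspa1a (ENSMUSG00000091971, GRCm38 chr17:34969190-34972156, minus strand) and Hspa1b (ENSMUSG00000090877, chr17:34956436-34959238, minus strand) are near-identical copies. Of the bases of their longest open reading frames, 1926 and 1929 bases long, 1890 were identical (98.13%). The division of reads between them is therefore uncertain, and levels of their sum are given beside the single values. Their promoters are shown because they carry the letters that heat shock factors bind and because they hardly differ, with Hspa4 as a member that lacks those letters. Each line gives the 150 bases before the start of transcription (RefSeq, GRCm38.p6, minus strand: chr17:34972157-34972306, chr17:34959239-34959388 and chr11:53300480-53300629), with any match to GAANNTTC in capitals.
Hspa1a: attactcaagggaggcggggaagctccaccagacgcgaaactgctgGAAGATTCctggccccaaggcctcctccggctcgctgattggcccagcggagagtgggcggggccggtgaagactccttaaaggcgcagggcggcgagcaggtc
Hspa1b: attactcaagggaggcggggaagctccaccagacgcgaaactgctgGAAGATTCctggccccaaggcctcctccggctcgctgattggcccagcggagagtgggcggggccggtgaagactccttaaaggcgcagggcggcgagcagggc
Hspa4: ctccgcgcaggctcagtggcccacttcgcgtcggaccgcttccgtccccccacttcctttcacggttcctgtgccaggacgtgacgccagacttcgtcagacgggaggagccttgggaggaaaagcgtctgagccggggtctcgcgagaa

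The Hspa1a and Hspa1b stretches were identical at 149 of 150 positions, and the match begins 104 bases before the start in both. RefSeq promoters were matched for 7 of the 10 genes. Hspa8, Hsp90aa1 and Hsp90ab1 are named only. In the 250 bases before a start, GAANNTTC was found in 3 of the 7 (Hspa1a, Hspa1b, Dnaja1), against 7.73% of all genes with a promoter sequence. The related TTCNNGAA was found in 1 (Hsph1), against 8.11%. Both patterns read the same on the 2 strands. The longer pattern of GAANNTTC followed at once by NNGAA, which contains both and was searched on both strands, was found before the start of none of the 7 and of 0.514% of all genes. CCAAT was found in 5 of 7 (37.5% of all genes) and TATAAA in 0 of 7 (14.3%). The 30 bases around the matches in Hsph1 (chr5:149636351-149636380, minus strand) and Dnaja1 (chr4:40722333-40722362, plus strand) begin at different distances, 33 bases before 1 of the 2 RefSeq starts of Hsph1 and 124 bases before 1 of the 3 starts of Dnaja1, whose other 2 promoters held no match.
Hsph1: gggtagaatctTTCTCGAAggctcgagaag
Dnaja1: aaaagcctctaGAAAATTCtacgaggctcg
Just after the start, a stretch for which no share over all genes was computed, the longer pattern was found in Hsph1, 15 and 36 bases after its starts, and GAANNTTC in Bag3. These matches are letters in a window and were not tested for binding. They are a description of 7 genes.

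Hspa8 was far more abundant than the inducible HSP70 genes, and Hsp90ab1 more abundant than Hsp90aa1. On the FPKM scale, over all libraries, the median level was 499 for Hspa8, the constitutive HSP70, and 291 for Hsp90ab1, the constitutive HSP90. It was 107 for Dnaja1, 51.2 for Hsp90aa1, the inducible HSP90, and 26.1 for Hspa4. Bag3 (11.2) and Dnajb1 (9.96) lay close together, just below Hsph1. Hspa1b followed at 4.21 and Hspa1a at 0.313.

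The inducible HSP70 genes had the widest range of levels. Hspa1b ran from 0.784 CPM in the wild-type female F3 of 6 months to 134 CPM in the Q20 male M4 of 6 months, with a median of 12.2. Hspa1a ran from 0.102 to 9.73 CPM with a median of 0.878, and its lowest value was 4 expected counts. Their sum ran from 0.997 to 143 CPM. By group, Hspa1b had its highest mean in Q92 at 6 months, 45.7 ± 29.3 CPM (SD, n = 8), and its lowest in Q111 at 10 months, 8.71 ± 4.91. Hspa1a was highest in Q92 at 6 months too, at 3.18 ± 3.05, and lowest in Q140 at 10 months, at 0.583 ± 0.436. In Q20 at 6 months the SD of Hspa1b exceeded its mean (34.4 ± 47.4 CPM), and likewise in wild type (18.1 ± 28.4). Medians were lower there (15.1 and 8.38), while Q92 at 6 months was the highest group by its median too (40.6).

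Hspa8 (ENSMUSG00000015656, chr9:40800984-40810087, plus strand) ran from 555 to 2259 CPM, with a median of 1150. Its group means lay between 957 ± 264 in Q92 at 10 months and 1368 ± 415 CPM in Q80 at 2 months. Hsp90aa1 (ENSMUSG00000021270, chr12:110690605-110702728, minus strand) ran from 49.5 to 524 CPM, with group means from 123 ± 32.9 in Q140 at 6 months to 228 ± 118 in Q80 at 2 months. Hsp90ab1 (ENSMUSG00000023944, chr17:45567775-45573271, minus strand) had a narrower range, 518 to 1158 CPM, and group means from 624 ± 54.8 in Q175 at 10 months to 816 ± 79.2 in Q80 at 6 months.

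Of the exchange factors, Hspa4 (ENSMUSG00000020361, chr11:53259814-53300457, minus strand) varied little, from 63.0 to 166 CPM, with group means from 96.7 ± 20.7 in Q20 at 6 months to 117 ± 12.6 in Q175 at 2 months. Hsph1 (ENSMUSG00000029657, chr5:149614287-149636376, minus strand) ran from 8.57 to 198 CPM, with group means from 34.6 ± 25.3 in Q92 at 10 months to 81.8 ± 59.9 in Q20 at 10 months. Bag3 (ENSMUSG00000030847, chr7:128523616-128546981, plus strand), which links HSP70 to autophagy, reached 75.4 CPM, with a median of 28.8. Its group means lay between 23.5 ± 6.12 in wild type at 2 months and 42.9 ± 21.8 in Q20 at 10 months. The J-domain gene Dnaja1 (ENSMUSG00000028410, chr4:40722150-40737149, plus strand) ran from 115 to 492 CPM and Dnajb1 (ENSMUSG00000005483, chr8:83608193-83612653, plus strand) from 8.58 to 77.1. Both had their lowest group mean in Q140 at 6 months (193 ± 33.7 and 18.7 ± 2.98 CPM) and their highest in Q20 at 10 months (326 ± 100.2 and 30.9 ± 14.7 CPM). For every member the libraries of its highest and lowest group overlapped, so no group stood apart from all others.

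**Figure D1:**
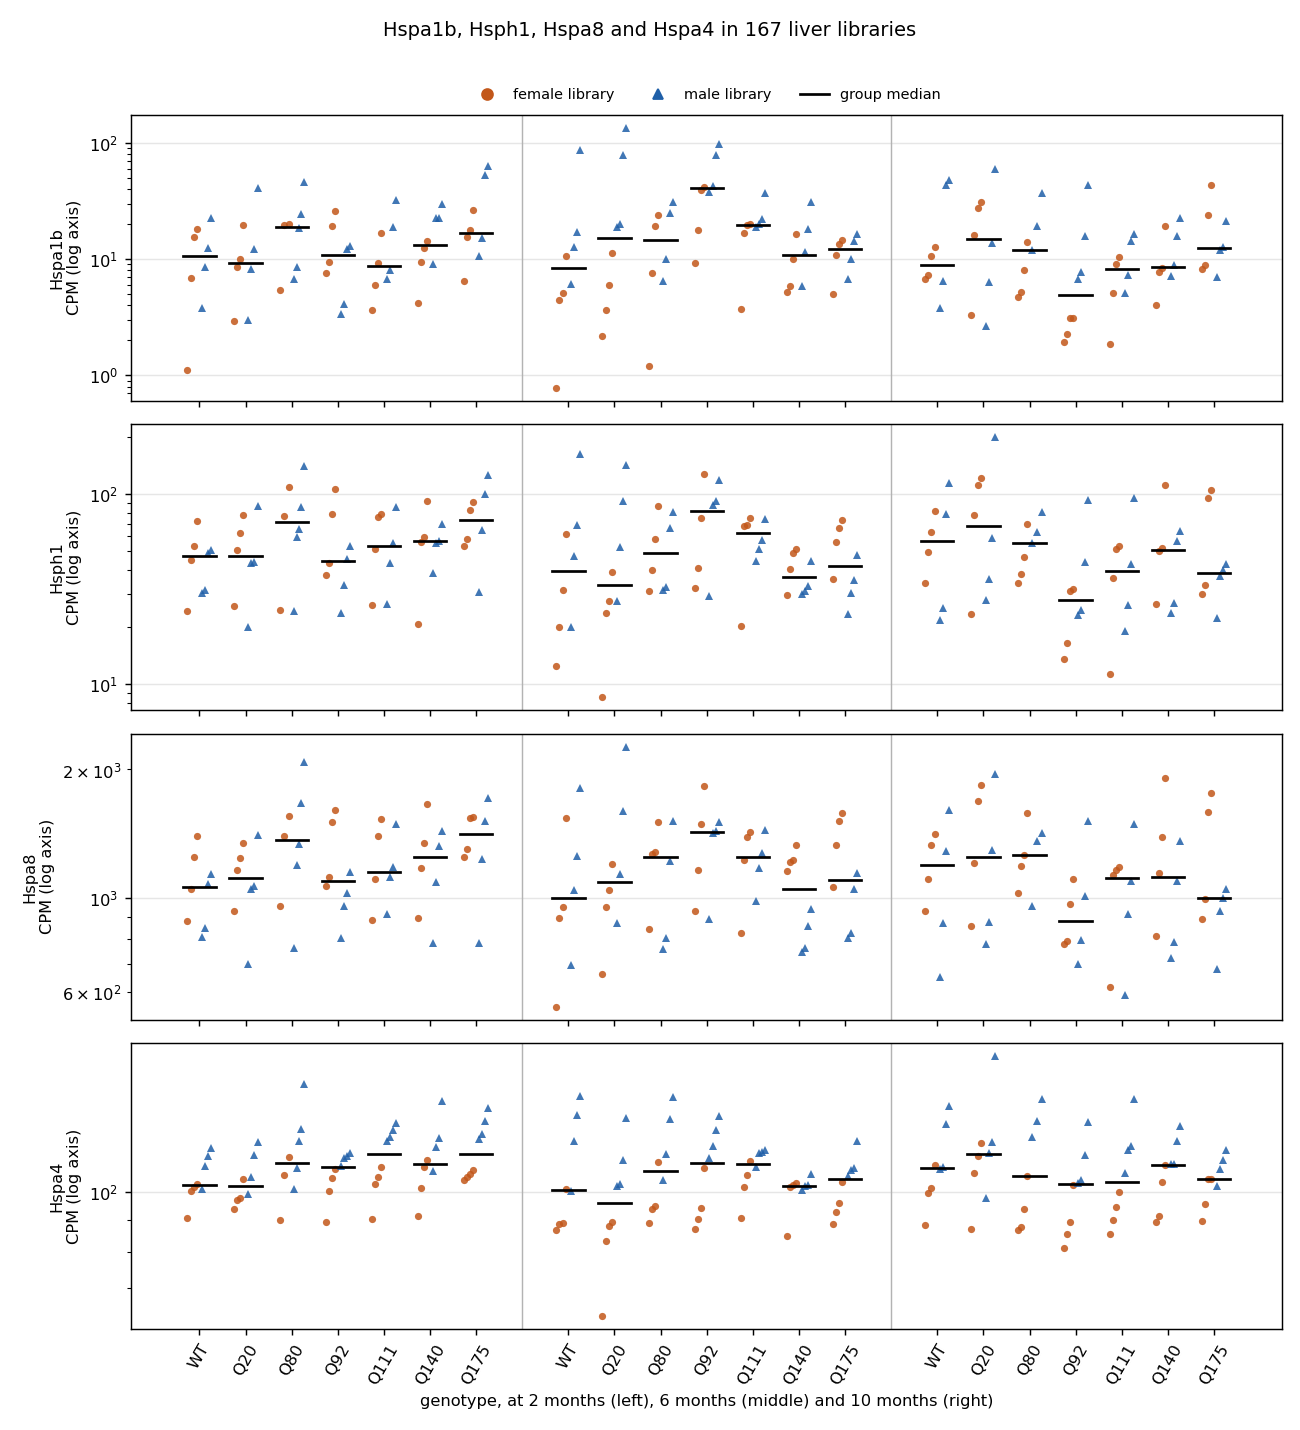
Levels of Hspa1b, Hsph1, Hspa8 and Hspa4 in CPM (vertical axes, log scale) in the 21 groups of genotype and age, with circles for females, triangles for males and a bar at the group median. Hspa1b spreads from 0.784 to 134 CPM, its highest and lowest groups overlap, and Hspa4 stays between 63.0 and 166.

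After the means of genotype, age and sex were removed, most members varied more between libraries than most genes of the liver. The residual SD on the log2 scale was 1.09 for Hspa1b, above that of 99.7% of 11984 genes. It was 0.79 for Hsph1 (99.1%), 0.73 for Hspa1a (98.7%) and 0.61 for Hsp90aa1 (97.8%). Dnajb1 (0.45), Bag3 (0.43), Hspa8 (0.40) and Dnaja1 (0.34) lay between the percentiles 88.5 and 95.2. Hsp90ab1 (0.25) was at the percentile 71.9, and Hspa4 (0.14) at 31.4, so Hspa4 alone varied less than the median gene.

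A shared rise of the chaperones was seen in 4 libraries. It was defined as at least 5 members at 2 times or more the median of the libraries of the same age and sex. These libraries were chosen by the measured values of the members, so their values are given as a description with no test. For the same reason a call of a member gained or lost when they are left out is a description of what the call rests on, and no test of its own. In all 4, each of the 10 members was above that median. At 6 months that median mixed index kinds, with wild-type libraries of the kind D7 and nearly all others of the kind LB. In the Q20 male M4 of 6 months 6 members passed. Hspa1b was at 6.93 times the median there, Hspa1a at 4.33, Dnajb1 at 3.54, Hsph1 at 2.97, Dnaja1 at 2.16 and Hspa8 at 2.07. The other members of that library were lower, with Hsp90aa1 at 1.90, Bag3 at 1.56, Hsp90ab1 at 1.42 and Hspa4 at 1.15.

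The widest rise was that of the Q20 male M3 of 10 months, with 7 members. There Hspa1b was at 4.73 times the median, Hsph1 at 4.63, Hsp90aa1 at 3.80, Hspa1a at 2.95, Bag3 at 2.61, Dnajb1 at 2.53 and Dnaja1 at 2.02. In the Q20 female F3 of 10 months the HSP90 gene Hsp90aa1 (2.35) and Bag3 (2.39) passed with Hspa1b (3.78), Hsph1 (2.51) and Hspa1a (2.45), while Dnajb1 (1.84), Hspa8 (1.47) and Dnaja1 (1.45) did not. In the wild-type male M2 of 6 months Hspa1b was at 4.49, Hsph1 at 3.41, Hspa1a at 2.53, Bag3 at 2.41 and Dnaja1 at 2.09. Hspa1b thus had the highest ratio in all 4 libraries, and Hspa4 the lowest or next to the lowest, between 1.15 and 1.41. The copies Hspa1a and Hspa1b were counted as separate members, though the division of reads between them is uncertain. The Q20 female F3 and the wild-type male M2 passed with exactly 5 members, both copies among them.

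There was no gap at the threshold. The next 6 libraries, with 4 members at 2 times, were the males M1 of Q175 and M2 of Q80 at 2 months, and F1 of Q175, F2 of Q20, M2 of Q92 and M3 of wild type at 10 months. In 128 libraries no member reached 2 times, and with a factor of 1.5 in place of 2 the number of libraries was 20. On the FPKM scale 2 of the 4 libraries passed. By the factor of 1.5, 4 of the 8 Q20 libraries of 10 months and 3 of the 8 Q92 libraries of 6 months were included, and no more than 2 of any other group. At the low end, the Q20 female F1 of 6 months had 5 members at 0.5 times the median or less, with Hspa1b and Hsph1 both at 0.21. In 35 libraries all 10 members were above the median and in 36 none was.

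The total counts of these 4 libraries lay within the range of the others of their age and sex. The summed levels of 10 marker lists lay within that range as well, apart from 6 values. The Q20 male M3 of 10 months was lowest for Kupffer cell and macrophage markers (234 CPM, median 399), neutrophil markers (1.05 CPM, median 2.13) and stellate cell markers (251 CPM, median 413). The wild-type male M2 of 6 months was lowest for bile duct (204 CPM, median 257) and lymphocyte markers (14.6 CPM, median 18.3) and highest for neutrophil markers (6.72 CPM, median 1.79). Their part in the rise was not tested.

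**Figure D2:**
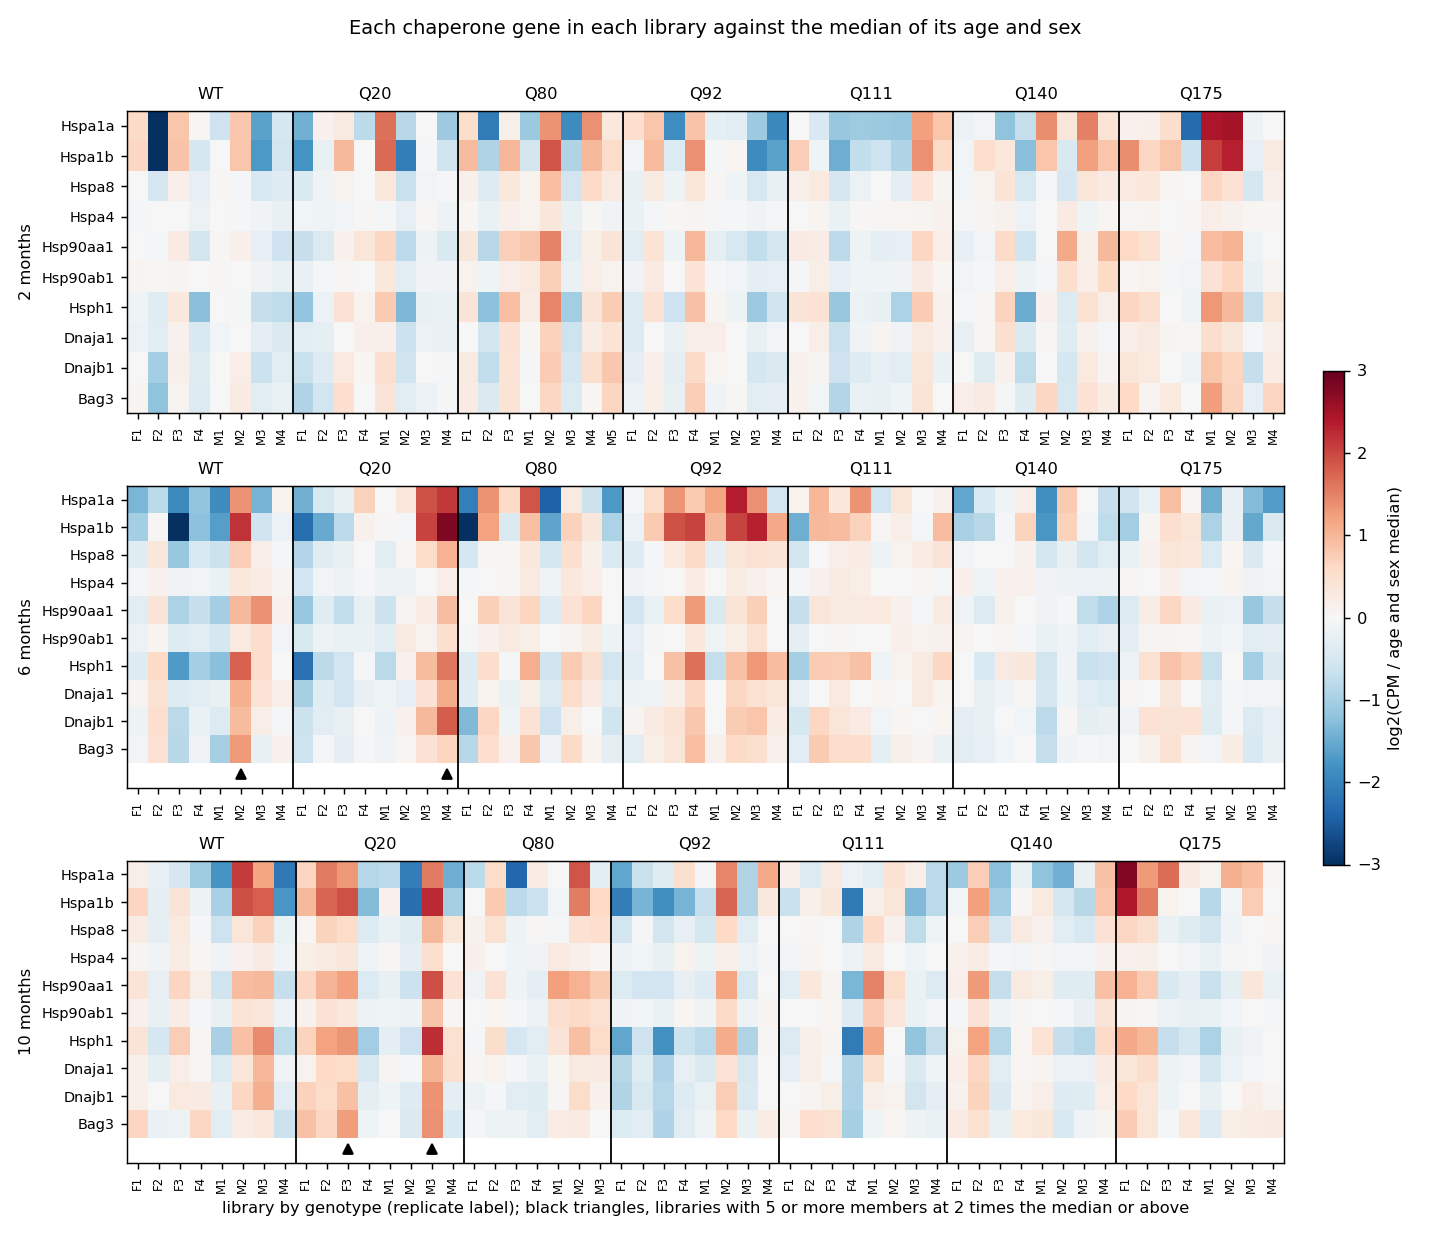
Log2 ratio of each member (rows) to the median of the libraries of the same age and sex, in each library (columns, by genotype), with colours clipped at 3 on either side of 0 and black triangles under the 4 libraries with a shared rise, in 1 panel for each age. Columns tend to be of 1 colour from top to bottom, and the Hspa4 row is the palest.

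Across libraries the members rose and fell together. All 45 pairs had a positive Pearson correlation of residuals over all libraries, from 0.515 (Hspa1a with Hspa4) to 0.946 (Hspa8 with Hsph1), with a median of 0.79. Spearman's rho ran from 0.476 to 0.938, and every pair had a permutation p of 1e-05, the smallest that 100000 permutations within age can give, which stayed 1e-05 after adjustment over the 45 pairs. Without the 2 libraries farthest from the median the median r was 0.777, and without the 4 libraries with a shared rise 0.759. Within single ages the median r was 0.71 (2 months), 0.793 (6 months) and 0.832 (10 months).

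The strength of the link differed between members, also within a role. Hsph1 had the highest median correlation with the other 9 members (0.874), followed by Dnajb1 (0.846), Hspa1b (0.839) and Hspa8 (0.83). The HSP90 genes were linked most closely to each other (0.919), and Hspa1b to Dnajb1 (0.924). Hspa1a, with the fewest counts, had the lowest median (0.659), and the exchange factors Hspa4 (0.732) and Bag3 (0.727) lay well below the exchange factor Hsph1. The differences between these medians were not tested.

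The genes outside the list that varied most like the 10 members were found among 11974 genes, whose median correlation with the members was near 0 (−0.001). By median r they were P4ha1 (0.816), Chordc1 (0.814), Stip1 (0.809), Tmem33 (0.804), Ube2f (0.796), Ahsa2 (0.785), Cacybp (0.781), Ahsa1 (0.777), Ubfd1 (0.764) and Ttpal (0.763). Chordc1, Stip1 and Ahsa1 encode co-chaperones of HSP90, and P4ha1 a subunit of collagen prolyl hydroxylase. The nearest genes differed between members. Hsph1 (0.946), Hspa8 (0.923) and Dnaja1 (0.912) were nearest to Chordc1, whereas Hspa1b (0.878), Hspa1a (0.722) and Dnajb1 (0.894) were nearest to P4ha1. Hsp90aa1 was nearest to Stip1 (0.939) and Ahsa1 (0.93), and Hsp90ab1 to Ahsa1 (0.926) and Stip1 (0.901). Hspa4 was nearest to Ncbp1 (0.851), a nuclear cap-binding protein, and Abce1 (0.834), which recycles ribosomes. Bag3 was nearest to Uspl1 (0.829) and P4ha1 (0.816), with Mroh6 (0.666), Ube2f (0.847) and Ccdc117 (0.866) second for Hspa1a, Dnaja1 and Dnajb1.

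As a description by list, the median correlation with the members was 0.59 over 15 chaperones of the endoplasmic reticulum and 0.56 over the 14 genes of the CCT chaperonin and prefoldin. It was 0.483 over 19 inducible and small heat shock proteins, 0.234 over 33 co-chaperones and 0.23 over 12 mitochondrial chaperones. It was 0.171 over 4 heat shock factor genes, with Hsf1 the highest of them (0.39). Immediate early genes, which respond quickly to handling and injury, had a median of −0.098. Of the marker lists, 9 had medians between −0.043 and 0.145, and the 4 lymphocyte markers with a value had −0.342. All these genes share libraries and depth with the members.

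Cirbp, which encodes a cold-inducible RNA-binding protein, moved against the chaperones. Its correlation with the members ran from −0.815 (Dnajb1) to −0.591 (Hspa1a), with rho between −0.829 and −0.619 and an adjusted permutation p of 3.08e-05 over 160 relations with cold-induced and clock genes. It held at each age, from −0.833 to −0.457 at 2 months, −0.849 to −0.613 at 6 months and −0.818 to −0.559 at 10 months, and from −0.807 to −0.608 without the 2 farthest libraries. In the 4 libraries with a shared rise Cirbp was at 0.606 (Q20 M4 of 6 months), 0.623 (Q20 F3 of 10 months), 0.798 (Q20 M3 of 10 months) and 0.708 times (wild-type M2 of 6 months) the median of their age and sex. The other cold-induced gene, Rbm3, had r from −0.366 to −0.037 and rho from −0.352 to −0.046, and 6 of its 10 relations had an adjusted permutation p below 0.05.

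Of 14 clock genes 4 (Per2, Cry1, Cry2 and Nr1d1) had an adjusted permutation p below 0.05 with all 10 members. The median correlation over the 14 was 0.045, and for Per3, Clock, Nr1d2, Dbp, Tef, Hlf, Nfil3 and Ciart only 2 to 4 of 10 relations had an adjusted permutation p below 0.05. Per2 and Nr1d1 were picked after their values were seen. Per2, a repressor of the clock that body temperature rhythms also drive, was correlated with all 10 members (r from 0.328 to 0.683, rho from 0.368 to 0.68, adjusted permutation p at most 0.000105). Its r was 0.15 to 0.725 at 2 months, 0.421 to 0.736 at 6 months and 0.315 to 0.636 at 10 months, and 0.344 to 0.671 without the 2 farthest libraries. Nr1d1 ran the other way (r from −0.492 to −0.18, rho from −0.46 to −0.181, adjusted permutation p at most 0.032), from −0.482 to −0.079 at 2 months, −0.364 to −0.145 at 6 months and −0.74 to −0.32 at 10 months, and −0.465 to −0.15 without the 2 farthest libraries. In the 4 libraries with a shared rise Per2 was at 2.03, 1.62, 2.07 and 1.98 times the median. The labels used here give no time of day for the dissection, and its part was not tested.

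**Figure D3:**
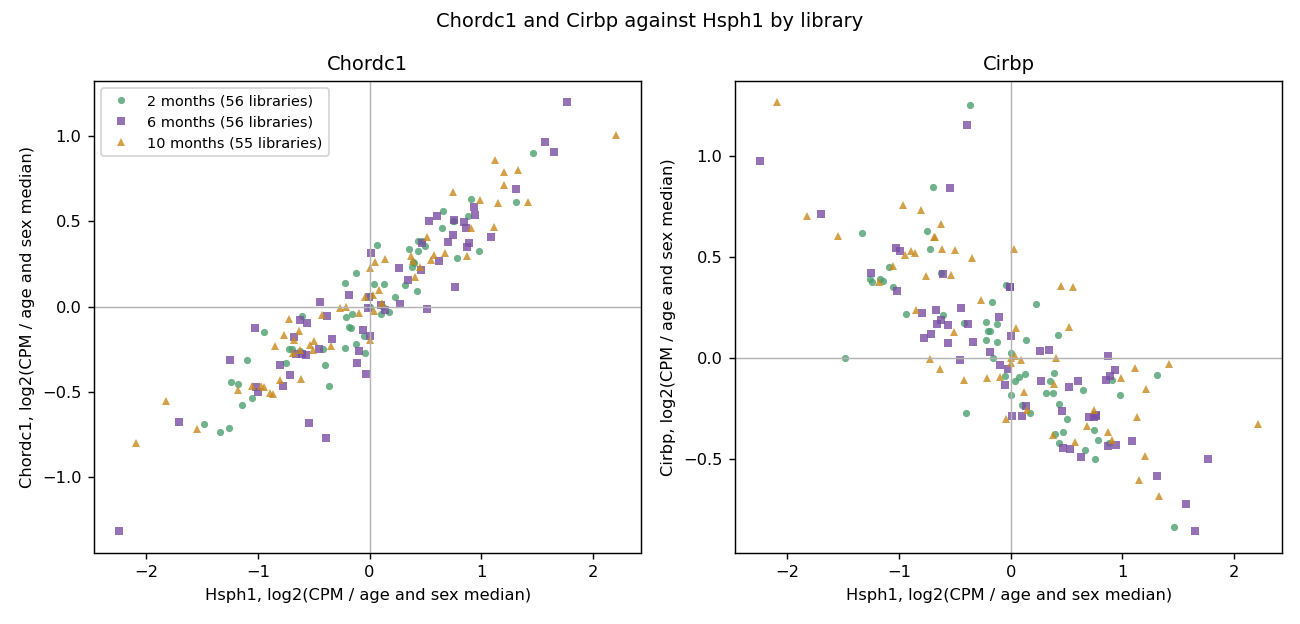
Chordc1 and Cirbp (vertical axes) against Hsph1 (horizontal axis), each as the log2 ratio to the median of the libraries of the same age and sex, 1 point a library. Chordc1 rises with Hsph1 and Cirbp falls. For the residuals after genotype by age and sex by age, which are not plotted, r was 0.946 for Chordc1 and −0.801 for Cirbp.

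With the length of the CAG repeat no member was called at any age in the main fit of both sexes together. The slope, per 100 repeats, was fitted with sex as a term over the 6 knock-in lines. At 2 months edgeR called 0 of the 10 members and 0.272% of all genes, with 2 members and 15.6% of all genes at an unadjusted p below 0.05. At 6 months it called 0 of 10 and 6.27%, with 2 members and 21.6% of all genes unadjusted, and at 10 months 0 of 10 and 0.595%, with 1 member and 10.6% unadjusted. DESeq2 and limma on log2 FPKM also called 0 at each age. For Q175 against Q20, the longest against the shortest allele, edgeR called 0 members at each age, against 0.31%, 10.9% and 1.26% of all genes at 2, 6 and 10 months. An unadjusted p below 0.05 was reached by 3, 1 and 1 members, against 14.3%, 26.4% and 13.6% of all genes. DESeq2 and limma called 0 there as well. With the replicate number as a block, a pairing the labels do not give, edgeR called Hspa1a at 6 months. Its adjusted p was 0.0471 for the slope (−0.92) and 0.0497 for Q175 against Q20 (−1.36). No share of all genes is given for the fits with the block. Because the members move together across libraries, 10 genes in 1 direction are not 10 separate observations.

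At 2 months all 10 members had a higher mean in Q175 than in Q20, with a median log2 difference of 0.42 against −0.01 over all genes, and none was called. Hspa4 was at 97.9, 93.9, 97.2 and 105 CPM in Q20 females and 115, 99.5, 121 and 106 in Q20 males. In Q175 it was at 106, 109, 105 and 107 in females and 137, 131, 124 and 122 in males. Within each sex the Q175 libraries lay above the Q20 libraries, apart from the Q20 female F4, which was above the Q175 female F3 by less than 1 CPM. The difference was 0.16 ± 0.06 (SE, edgeR adjusted p = 0.183). Bag3 differed by 0.54 ± 0.20 (adjusted p = 0.186), Dnaja1 by 0.35 ± 0.14 (0.227), Hspa1a by 0.96 ± 0.50 (0.375) and Hsph1 by 0.56 ± 0.32 (0.421). Hspa1b was at 53.2 and 63.1 CPM in the Q175 males M1 and M2 and at 40.6 CPM in the Q20 male M1, and between 2.91 and 26.5 in the other 13 libraries of these groups. The slope at 2 months was positive for all 10 members with a median of 0.20, from 0.09 ± 0.12 (Dnajb1) to 0.57 ± 0.29 (Hspa1a). In Q80, Q92, Q111 and Q140 at 2 months edgeR called 0 of 40 values against Q20, and 0.0991% (Q80) or 0% of all genes, and DESeq2 and limma called 0. An unadjusted p below 0.05 was reached by 3 of 40 values, against 9.06% (Q80), 7.13% (Q92), 5.97% (Q111) and 13.3% (Q140) of all genes. Beside this, 5 of 5 red cell markers tested were higher in Q175 at an unadjusted p below 0.05 (6.75% of all genes). Of 12 stellate cell markers 2 were called lower (0.205% of all genes). Their part was not tested.

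At 6 months the inducible HSP70 genes were the members with the largest differences, and these went the other way. The slope was −0.87 ± 0.31 for Hspa1a (edgeR adjusted p = 0.0795) and −0.84 ± 0.37 for Hspa1b (0.168), and that of the other 8 members lay between −0.30 ± 0.15 (Dnajb1) and 0.04 ± 0.05 (Hspa4). Hspa1b was at 2.18, 3.65, 6.04 and 11.3 CPM in Q20 females and 19.9, 18.9, 78.6 and 134 in Q20 males. In Q175 it was at 5.02, 10.9, 14.7 and 13.4 in females and 10.0, 16.5, 6.74 and 14.3 in males. The Q175 males thus all lay below the Q20 males, while the females overlapped. For Hspa1a the difference between Q175 and Q20 was −1.27 ± 0.52 (edgeR adjusted p = 0.103). In males alone Hspa1a (−2.39, edgeR adjusted p = 0.045) and Dnajb1 (−1.17, 0.037) were called lower in Q175. The share of all genes called in males alone is not given here, so these calls cannot be set against it. Among the other lines, the difference of Hspa4 from Q20 was 0.19 ± 0.08 in Q80 (adjusted p = 0.0974), 0.16 ± 0.08 in Q92 (0.135) and 0.17 ± 0.08 in Q111 (0.206), none called. Over the 4 lines edgeR called 0 of 40 values, with Q92 calling 18% of all genes, Q80 9.3%, Q140 5.98% and Q111 1.24%. DESeq2 and limma called 0. By edgeR 5 of 40 values had an unadjusted p below 0.05, against 25.6% (Q80), 32.3% (Q92), 17.8% (Q111) and 21.4% (Q140) of all genes. Called higher were 4.41% of all genes in Q175, 3.73% in Q80, 7.07% in Q92 and 2.69% in Q140.

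At 10 months 9 of 10 members had a negative difference between Q175 and Q20 (median −0.29), led by Hsp90ab1 (−0.29 ± 0.13, adjusted p = 0.319), and that of Hspa1a was positive (0.73 ± 0.48, 0.533). In Q92 all 10 differences from Q20 were negative, with a median of −0.66, and 8 had an unadjusted p below 0.05, against 19.1% of all genes. Dnaja1 was the 1 member called, where 4% of all genes were. It was at 289, 408, 391 and 193 CPM in Q20 females and 257, 237, 492 and 339 in Q20 males, and at 152, 211, 142 and 226 in Q92 females and 179, 326, 175 and 245 in Q92 males. The groups overlapped, and the difference was −0.65 ± 0.18 (adjusted p = 0.0325). The call was lost without the libraries with a shared rise (−0.47, adjusted p = 0.247), which removes 2 Q20 libraries, and without the libraries with markers of other tissue (−0.59, 0.17), which removes the Q92 females F3 and F4 with Krt19 at 16.1 and 21.6 CPM.

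Hsph1 was at 13.6 to 43.8 CPM in 7 of the 8 Q92 libraries and at 92.7 in the male M2, and at 23.3 to 198 in Q20. It differed by −1.25 ± 0.42 (edgeR adjusted p = 0.0773). The values for Dnajb1 (−0.67 ± 0.22, 0.0694) and Bag3 (−0.67 ± 0.22, 0.0704) were close to the threshold too, and DESeq2 called these 3 with Dnaja1. The share of all genes called by DESeq2 is not given here. Of the bile duct and gallbladder markers 3 of 8 were called higher in Q92 (2.02% of all genes), with a summed level of 225 to 275 CPM against 184 to 251 in Q20. Their part was not tested. In Q111 all 10 differences from Q20 were negative, 5 of them at an unadjusted p below 0.05 (12.4% of all genes), and none was called where 1.11% of all genes were. In Q80 9 of 10 and in Q140 all 10 were negative, again with 0 called, against 0.0127% and 0.00637% of all genes. These contrasts share the Q20 libraries, of which 2 of 8 had a shared rise.

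Q20 against wild type gave 0 of 10 members called at each age by edgeR, against 0% of all genes at 2 months, 32.2% at 6 months and 0.0127% at 10 months. DESeq2 called 0 as well, and limma called 2 at 6 months, for which its share of all genes is not given here. Unadjusted p-values below 0.05 were reached by 0, 1 and 0 members, against 3.3%, 42% and 2.31% of all genes. At 6 months, where the index kind cannot be told apart from the genotype, the difference of Hspa1a was 1.18 ± 0.50 (adjusted p = 0.0632). At 10 months all 10 differences were positive with a median of 0.18, from 0.07 ± 0.08 (Hspa4) to 0.48 ± 0.41 (Hsph1), and the adjusted p was 1 for each.

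At 6 months the fitted slopes with CAG length were mostly positive in females and negative in males, and the main test of that difference fell short of the threshold. The interaction, the slope of females minus that of males per 100 repeats, was positive for all 10 members with a median of 0.79 (all genes −0.01), and all 10 had an unadjusted p below 0.05, against 12.7% of all genes. None was called by edgeR in the main fit, where 0.226% of all genes were, and limma called 0. DESeq2 called 5. With the replicate number as a block, a pairing the labels do not give, edgeR called Hspa8, Hsph1, Dnaja1 and Dnajb1 (adjusted p from 0.0257 to 0.046). The share of 0.226% is that of the main fit. Shares of all genes for DESeq2 and for the block are not given here, so their calls cannot be set against it. In the main fit the smallest edgeR values were those of Dnaja1 (0.74 ± 0.19, adjusted p = 0.062), Dnajb1 (adjusted p = 0.0749), Hspa8 (0.72 ± 0.20, 0.0864) and Hsp90ab1 (0.40 ± 0.11, 0.0944). Hsph1 (1.42 ± 0.43, 0.123) and Hspa1b (SE 0.72, adjusted p = 0.27) had larger differences with larger errors.

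Libraries of Q20 and Q175 at 6 months show the pattern. Dnaja1 was at 115, 180, 155 and 199 CPM in Q20 females and at 235, 230, 291 and 233 in Q175 females, with no overlap. In males it was at 192, 178, 285 and 453 in Q20 and at 166, 203, 199 and 197 in Q175. Hsph1 was at 8.57, 23.7, 27.5 and 39.1 CPM in Q20 females and 35.8, 55.9, 73.2 and 66.0 in Q175 females, where 1 library overlapped. In males it was at 27.5, 52.7, 92.1 and 142 in Q20 and 30.2, 48.1, 23.5 and 35.2 in Q175. Q175 was therefore the higher group in females for both genes, and in males the Q20 libraries M3 and M4 lay above all Q175 males.

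In each sex alone, the slope of 9 members was positive in females and that of all 10 was negative in males. In males Dnajb1 was called (−0.75, edgeR adjusted p = 0.0476), and the share of all genes called in that fit is not given here. The interaction of Dnaja1 was 0.58 (adjusted p = 0.183) without the libraries with a shared rise. It was 0.54 (0.256) without 3 Q20 females (F1, F3, F4), which stand apart in macrophage markers, so that it ranged from 0.54 to 0.75 over 11 alternatives. Over the alternatives its adjusted p ranged from 0.0148 to 0.256. Of 5 red cell markers 4 had a positive interaction at an unadjusted p below 0.05 (6.43% of all genes), and all 8 lymphocyte markers were negative with none at that level. Their part was not tested. At 2 months the interaction was negative for 9 of 10 members and at 10 months positive for all 10. There edgeR called 0 of 10 members, and 0% and 0.173% of all genes, and DESeq2 and limma called 0. An unadjusted p below 0.05 was reached by 0 members at both ages, against 5.33% and 15.6% of all genes.

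**Figure D4:**
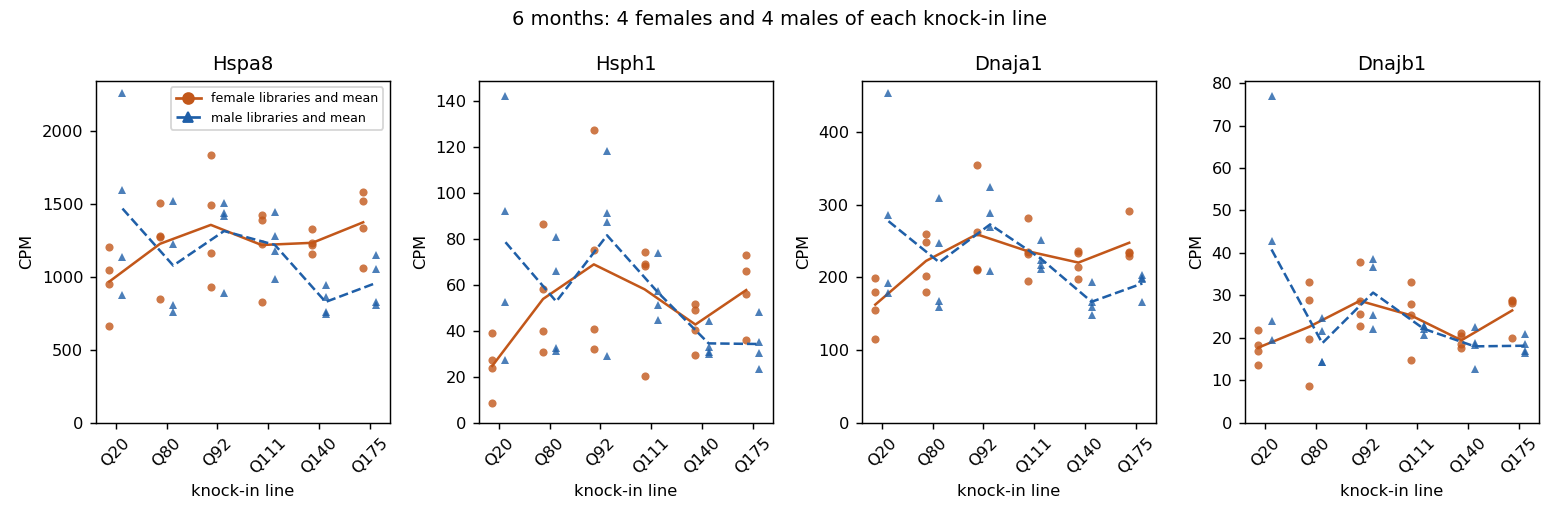
Levels of Hspa8, Hsph1, Dnaja1 and Dnajb1 (CPM, linear axes from 0) at 6 months in the 6 knock-in lines, with circles for females, triangles for males and a line joining the means of each sex (solid for females, dashed for males). For Dnaja1 the Q175 females (230 to 291 CPM) lie above the Q20 females (115 to 199), and the Q20 male M4 (453) is the highest male.

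Between the sexes Hspa4 and the inducible HSP70 genes differed, and most other members did not pass the test. edgeR called 3 of 10 members at 2 months (57.6% of all genes, 29.8% of all genes being higher in females), 5 at 6 months (60.9%) and 3 at 10 months (57.2%), so the share of members was below that of all genes at 2 and 10 months and near it at 6 months. Hspa4 was lower in females at every age. The library Q80 M5, which goes against its label, is counted as the male it is labelled, and without it the count of 3 called members at 2 months was the same. The level of Hspa4 was 102 ± 7.21 CPM (SD) in 27 females and 119 ± 11.7 in 29 males at 2 months. The female libraries ran from 89.4 through a median of 103 to 114, and the male ones from 99.5 through 118 to 150. At 6 months it was 94.5 ± 10.4 in 28 females and 116 ± 12.7 in 28 males, and at 10 months 97.3 ± 10.1 in 28 and 120 ± 14.9 in 27.

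The sexes overlapped, but 27 of 27, 28 of 28 and 27 of 28 females lay below the male median at 2, 6 and 10 months, and the female mean was lower in all 7 genotypes at each age. The log2 difference of Hspa4, females minus males, was −0.22 ± 0.03 (edgeR adjusted p = 3.29e-08), −0.29 ± 0.04 (1.65e-08) and −0.29 ± 0.04 (5.37e-08). On the FPKM scale the median of all genes itself moved to 0.09, 0.12 and 0.15 at the 3 ages. Against that median Hspa4 was lower by −0.20, −0.26 and −0.22, while the value itself at 10 months, −0.07, did not pass limma's test (adjusted p = 0.0956).

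Hspa1a was lower in females by −1.07 ± 0.28 (edgeR adjusted p = 0.0012), −1.26 ± 0.28 (0.000123) and −0.70 ± 0.28 (0.0294) at 2, 6 and 10 months. For Hspa1b the difference was −0.50 ± 0.27 (0.112), −1.29 ± 0.32 (0.000409) and −0.85 ± 0.31 (0.0166). At 6 months Hspa1b was at 0.784 to 42.1 CPM with a median of 10.4 in females and at 5.82 to 134 with a median of 19.4 in males. There 22 of 28 females lay below the male median, and the female mean was lower in all 7 genotypes. The sum of both copies was 13.3 ± 10.7 CPM in females and 35.3 ± 34.7 in males at that age. On the FPKM scale the calls at 10 months were lost (Hspa1a −0.33, limma adjusted p = 0.158, and Hspa1b −0.54, 0.0999), though both stayed below the median of all genes, by −0.48 and −0.69. Without the libraries with markers of other tissue Hspa1b was not called at 10 months either (−0.75, edgeR adjusted p = 0.0517).

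The HSP90 genes were lower in females at 6 months alone among the tests called: Hsp90aa1 by −0.71 ± 0.15 (edgeR adjusted p = 8.6e-05) and Hsp90ab1 by −0.20 ± 0.06 (0.00503). Hsp90aa1 was at 121 ± 48.9 CPM in females and 199 ± 88.9 in males, with 26 of 28 females below the male median. The difference between ages was not tested. Dnajb1 was the 1 member called higher in females, at 2 months (0.26 ± 0.11, 0.0356), with 27.8 ± 7.40 CPM in females and 23.7 ± 7.73 in males and a higher female mean in all 7 genotypes. The call of Dnajb1 was lost without the filter on low counts (edgeR adjusted p = 0.0522). It was also lost without the libraries with markers of other tissue (0.0844). On the FPKM scale the split of calls moved from 1 higher and 2 lower to 3 higher (Hspa8, Dnaja1 and Dnajb1) and 2 lower at 2 months. At 10 months it moved from 3 lower to 3 higher (Hspa8, Dnajb1 and Bag3), and at 6 months from 5 to 4 lower, where Hsp90ab1 (−0.05, limma adjusted p = 0.389) was no longer called. Hspa8, Hsph1, Dnaja1 and Bag3 were not called by edgeR at any age.

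Markers of other cells differed between the sexes too. At 6 months 12 of 12 Kupffer cell and macrophage markers, 7 of 8 lymphocyte markers, 8 of 12 stellate cell markers and 5 of 9 endothelial markers were called higher in females, and 5 of 10 hepatocyte markers lower and 2 higher. Of all genes 31.4% were called higher in females and 29.5% lower. The summed level of the macrophage markers ran from 290 to 1297 CPM in females (median 539) and from 135 to 563 in males (median 426), with none of the 12 at 0. That of the hepatocyte markers ran from 102619 to 161370 CPM in females and from 101484 to 139764 in males. Their part in the differences of the members was not tested.

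**Figure D5:**
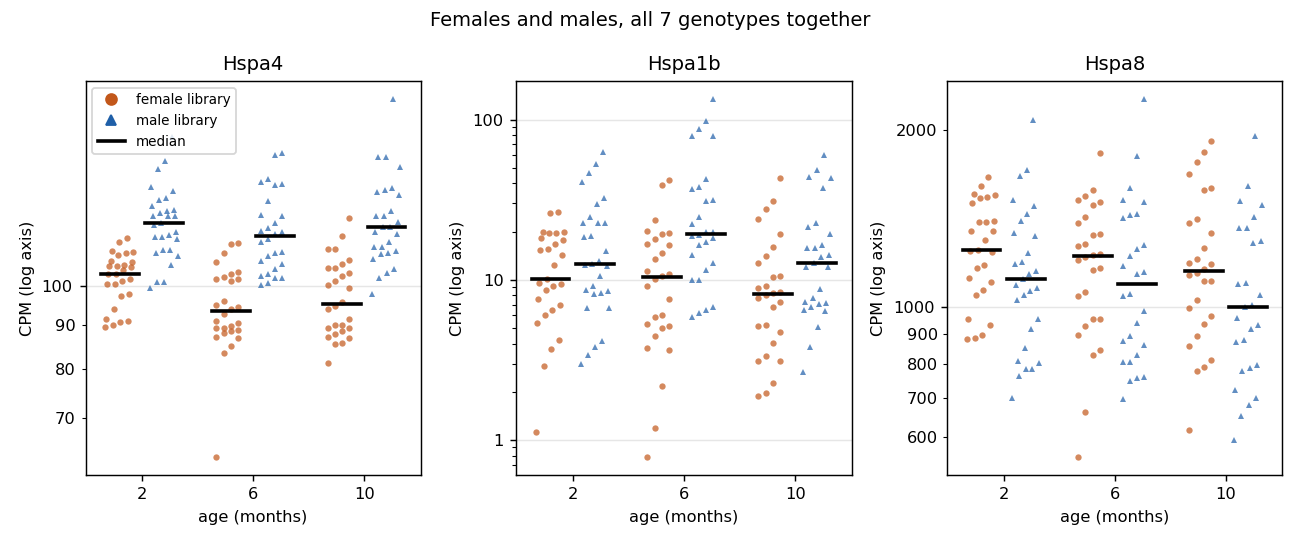
Levels of Hspa4, Hspa1b and Hspa8 (CPM, log scale) in females and males at 2, 6 and 10 months, 1 point a library with a bar at the median. The female points of Hspa4 lie below the male median in every library of 2 and 6 months and in 27 of 28 of 10 months, and those of Hspa8 overlap the male points throughout.

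Between ages few members were called, against large shares of all genes. From 2 to 6 months edgeR called 2 of 10 (53.1% of all genes), Hspa4 (−0.09 ± 0.03, adjusted p = 0.0129) and Dnaja1 (−0.20 ± 0.07, 0.0136). From 2 to 10 months it called 1 (22.8% of all genes), Hspa1a (−0.67 ± 0.23, 0.0227). From 6 to 10 months it called 4 (54.4%): Hspa1a (−0.94 ± 0.22, 0.000149), Hspa1b (−0.65 ± 0.24, 0.0147) and Hsp90ab1 (−0.12 ± 0.05, 0.0356) were lower at 10 months and Dnaja1 (0.22 ± 0.07, 0.00656) was higher. With the index kind as a covariate no member was called from 2 to 6 or from 6 to 10 months, and Hspa1b (0.13) and Hsp90ab1 (0.03) changed sign from 6 to 10 months. Of the knock-in libraries of 6 months, only Q175 F3 and M3 lacked an LB index, so that fit cannot tell age from index kind. Wild-type libraries, none with an LB index at any age, were left out of the age fits. Their Hspa4 went from 105 ± 8.63 CPM (SD) at 2 months to 108 ± 21.8 at 6 months. Their Dnaja1 went from 224 ± 36.6 to 257 ± 88.3. Both means thus rose, within a wide spread, where the knock-in fits gave a fall. From 6 to 10 months the wild-type means of the 4 called members moved as in the knock-in lines. Age in wild type was not tested.

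The other chaperones were followed by lists. With CAG length at 6 months, edgeR called 2 of 33 HSP70 and HSP90 co-chaperones higher and 1 lower. Bag2, an exchange factor, had a slope of 0.36 ± 0.09 (adjusted p = 0.0147), Sgta, which guides tail-anchored proteins, 0.08 ± 0.02 (0.0276), and Dnajc13, an endosomal J-domain protein, −0.17 ± 0.04 (0.00766). Of 20 inducible and small heat shock proteins 1 was called higher, Hspb6 (0.35 ± 0.06, 0.00235), and 2 lower, Hspa12b (−0.36 ± 0.11, 0.039) and Hspb8 (−0.20 ± 0.06, 0.0391), where 6.27% of all genes were called, 2.47% of all genes being higher. No gene of the lists of endoplasmic reticulum (15 genes), mitochondrial (12), CCT and prefoldin (14) or heat shock factor genes (5) was called at that age. These lists held 1, 1, 2 and 2 genes at an unadjusted p below 0.05, against 21.6% of all genes. At 2 and 10 months none of the 6 lists held a called gene for the slope.

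At 2 months 14 of 15 endoplasmic reticulum chaperones had a positive slope (median 0.14) and at 10 months all 15 a negative one (median −0.19). Of them 5 and 8 had an unadjusted p below 0.05, against 15.6% and 10.6% of all genes. The smallest p at 2 months were those of Dnajb9 (0.41 ± 0.12, edgeR adjusted p = 0.0891) and Manf (0.36 ± 0.12, 0.145), and at 10 months those of Canx (−0.14 ± 0.04, 0.113) and Pdia6 (−0.23 ± 0.10, 0.365). The 10 members had medians of 0.20 and −0.18 in the same fits, none called. The endoplasmic reticulum list is correlated with the members across libraries, so these are not separate observations.

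Between the sexes most genes of the endoplasmic reticulum list were called, where 57.6%, 60.9% and 57.2% of all genes were at 2, 6 and 10 months. Of its 15 genes 11 were lower in females and 1 higher at 2 months, 13 lower at 6 months and 14 lower at 10 months, with medians of −0.43, −0.67 and −0.56. At 6 months Pdia6 (−0.79 ± 0.07, edgeR adjusted p = 1.08e-13), Calr (−0.67 ± 0.07, 5.91e-13), Sdf2l1 (−1.54 ± 0.16, 9.01e-12) and Pdia3 (−0.58 ± 0.06, 3.48e-11) had the smallest p. Of the 33 co-chaperones 6 were higher and 17 lower in females at 6 months, with Dnajb6 (0.34 ± 0.04, 1.43e-11) and Fkbp5 (1.24 ± 0.16, 1.79e-09) higher and Unc45a (−0.40 ± 0.06, 2.31e-08) lower. Of the inducible and small heat shock proteins 3 were higher and 9 lower, with Hspa2 (0.97 ± 0.11, 4.16e-11) higher and Hspb6 (−0.46 ± 0.06, 4.55e-10) and Hspb1 (−0.95 ± 0.16, 1.86e-06) lower. Of the 14 CCT and prefoldin genes 3 were higher and 6 lower, of the mitochondrial chaperones 1 and 6, and of the 5 heat shock factor genes 1 and 2. Clpx, a subunit of a mitochondrial protease, differed by −1.17 ± 0.10 and Cct3, a CCT subunit, by −0.33 ± 0.05 (edgeR adjusted p = 1.02e-14 and 2.93e-08). Hsf1 itself was not called (−0.02 ± 0.04, 0.65).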

How the data were processed

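Liver messenger RNA of 167 libraries was measured by polyA RNA-seq. The authors deposited expected counts per gene and FPKM values. CASAVA 1.8.2 is named in the submitters' processing notes, while aligner, quantifier and build were not given in the sources used here. Of 39179 gene identifiers 37607 matched a GENCODE M21 symbol. Expected counts (14.1% of values not whole) were rounded and tested with edgeR 4.0.16 (R 4.3.3, TMM normalisation, low-count filter by genotype and sex, quasi-likelihood test, Benjamini-Hochberg adjustment over all genes tested, threshold 0.05). Each age was fitted with genotype and sex over its 7 genotypes, slopes and interactions over the 6 knock-in lines, and ages over the knock-in lines. DESeq2 1.42.0, limma 3.58.1 on log2(FPKM + 0.1), other normalisation and filters, a replicate block, index kind as covariate and left-out libraries were alternatives. Fold changes on log2(FPKM + 0.1) understate those of low genes.

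Correlations used residuals of log2(CPM + 0.5) after genotype by age and sex by age, with 100000 permutations within age (Python 3.11.15, NumPy 2.4.6, SciPy 1.17.1). Genes with a mean CPM of at least 1 were searched for likeness. Total counts had a median of 38663519. The member with the fewest, Hspa1a, had 4 to 434 counts (median 36), and Hspa8 the most, with 23299 to 107044. The edgeR step was tested on simulated data. Described were all members, up to 4 called genes of smallest p per list (or else the 2 of smallest p), and for likeness the 10 nearest genes and 2 for each member. Hsf1, Per2, Nr1d1, Cirbp and Rbm3 were chosen after their values were seen. The members and lists were chosen with earlier results of these data known.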

Additional observations from a re-analysis of the deposited data

Results flagged for a closer look

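In each group of 7 or 8 libraries the highest and lowest value of each member was compared with the next. In 24 of 210 such groups 1 library stood apart by Dixon's criterion, and members that move together repeat the same library. For values of a normal distribution chance alone meets this criterion in about 1 group in 20. The rate is not known for these groups, whose CPM values were not on a log scale and came from both sexes. Of the 24 values, all in CPM, 23 were high, and they came from 14 libraries.

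The Q92 male M2 of 10 months stood apart for 5 members. It had Hspa1b at 43.0 (next 15.9), Hsp90aa1 at 313 (138), Hsp90ab1 at 953, Hsph1 at 92.7 (43.8) and Dnajb1 at 33.5 (20.2). The wild-type male M2 of 6 months stood apart for 4, with Hspa1a at 4.79 (2.05), Hspa1b at 87.3 (17.2), Hsph1 at 163 (69.2) and Bag3 at 74.6 (35.7).

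In the Q20 male M1 of 2 months Hspa1a was at 4.18 (1.35) and Hspa1b at 40.6 (19.8). In the Q80 male M2 of 2 months Hspa1b was at 46.5 (24.6) and Hsp90ab1 at 1150 (842). In the Q175 female F1 of 10 months Hspa1a was at 3.6 (1.71) and Hspa1b at 43.1 (23.8).

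The remaining 9 libraries stood apart for 1 member each. Hspa1a was at 9.73 (4.86) in the Q92 male M2 of 6 months and at 3.02 (0.821) in the Q80 male M2 of 10 months. Hspa4 was at 166 (121) in the Q20 male M3 of 10 months, and its low value was 84.9 (next 101) in the Q140 female F2 of 6 months. Hsp90aa1 was at 387 (202) in the Q111 male M1 of 10 months and Hsph1 at 111 (63.9) in the Q140 female F2 of 10 months. Dnaja1 was at 486 (315) in the wild-type male M3 of 10 months, Dnajb1 at 77.1 (42.8) in the Q20 male M4 of 6 months and Bag3 at 46.7 (31.2) in the Q92 female F4 of 2 months.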

How the results depend on the processing

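Of 4429 values of single members under alternatives, 4360 kept their direction, where called, and their side of the threshold, 47 passed it, 20 lost it and 2 reversed. With the index kind as covariate, Hspa1b (0.13) and Hsp90ab1 (0.033) reversed from 6 to 10 months, and the counts from 2 to 6 and from 6 to 10 months were 0. That fit rests on Q175 F3 and M3, the only knock-in libraries of 6 months without an LB index, and cannot decide between age and index kind. Of the counts of called members 322 did not move beyond 1.5 times and 29 did. limma on FPKM called 5 for sex at 2 months, 2 for Q20 against wild type at 6 months, 2 for the other lines at 10 months, 1 from 2 to 6 months and 0 from 2 to 10 months. DESeq2 called 5 for the interaction at 6 months and 4 for the other lines at 10 months. In males alone at 6 months 1 was called for the slope and 2 for Q175 against Q20. Shares of all genes are given for the main fits only.

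Without the libraries with a shared rise the count was 5 for the other lines and 1 for Q20 against wild type at 6 months, and 0 for the other lines at 10 months. Without the libraries with 5 members at 1.5 times it was 1 for Q20 against wild type at 6 months, 0 for the other lines at 10 months, 4 from 2 to 6 months and 7 from 2 to 10 months. Without libraries with RNA of other tissue it was 0 for the other lines at 10 months, 0 from 2 to 10 months and 2 from 6 to 10 months. Without 3 Q20 females of 6 months it was 1 for Q20 against wild type and 1 from 2 to 6 months, and the slope at 6 months called 21 of all genes in place of 972. The cause was not tested. Libraries with a shared rise were chosen by the members' own values, so these counts without them are no test. These last settings with 1.5 times and with the 3 females, and older dispersion estimates, were chosen after seeing the data. The number of libraries with a shared rise was 20 at 1.5 times and 2 on FPKM.

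Replicate numbers did not meet the rule for pairing, a correlation above 0.1 in every pair: same-numbered Q175 and Q20 libraries reached it in 3, 4 and 5 of 8 pairs at 2, 6 and 10 months. With a replicate block Hspa1a was called at 6 months for the slope (−0.92), Q175 against Q20 (−1.36) and Q20 against wild type (1.36), 1 member each, and 4 were for the interaction (Hspa8, Hsph1, Dnaja1 and Dnajb1). Leaving out each of 16 libraries of Q20 and Q175 in turn at each age gave 0 to 0 members called for the slope and for Q175 against Q20. The index covariate could not be fitted for Q20 against wild type at 6 months, nor the block for sex. Depth limits Hspa1a most, with a median of 36 counts.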

Other observations

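At 6 months the libraries with the same replicate label held similar places in different groups, a pattern found after seeing the data. F1 was the lowest of the 4 females in 53 of 70 cases of 1 member in 1 genotype, M1 the lowest of the 4 males in 45 of 70, and M2 the highest male in 42 of 70. At 2 months F1 was the lowest in 14 of 60 cases and M1 in 6 of 60, and at 10 months F1 in 4 of 70 and M1 in 15 of 60. Labels held uneven places at those ages too. M1 was the highest male in 28 of 60 cases at 2 months. At 10 months F2 was the highest female in 34 of 70 and F4 the lowest in 31 of 70. Cirbp was the highest of 4 in F1 in 5 of 7 genotypes at 6 months and in M1 in 5 of 7, and Per2 the lowest in F1 in 5 of 7 and in M1 in 5 of 7. At 10 months Per2 was the lowest in F4 in 5 of 7. The members move together, so these cases are not independent, and the labels used here do not say what the numbers stand for.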
